A study of Mus musculus with 6 samples.

Results

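The mouse mitochondrial genome carries 37 genes, and all of them left short RNA fragments in these small RNA libraries. The set comprised the 2 ribosomal RNA, 22 transfer RNA and 13 protein-coding genes whose GENCODE symbol starts with mt-. A fragment was counted for a gene when a sequenced tag (a distinct read sequence with its count) of 18 to 44 bases matched the sense strand of that gene without mismatch. Of 3958863 distinct tags in the 6 libraries, 10770 met this rule, and each of the 37 genes had tags, among 55450 annotated genes searched. Levels are given as counts per 1000000 of all tags in a library (CPM).

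The cells were J1 mouse embryonic stem cells, 1 established laboratory line adapted to growth on gelatin and kept in medium with leukemia inhibitory factor (LIF), which holds such cells in the undifferentiated state. All 6 groups were harvested after 24 h and are represented by 1 library each: DMSO (1 µL, vehicle), retinoic acid (RA, 1 µM), BIO (1 µM), CHIR99021 (3 µM), ddH2O (1 µL, vehicle) and vitamin C (VC, 50 µg/ml). LIF was present in every group, RA included. RA is a differentiation signal, BIO and CHIR99021 are inhibitors of GSK3, a kinase of the Wnt pathway, and VC is a cofactor of dioxygenases. RA, BIO and CHIR99021 were compared with DMSO and therefore share that library, VC was compared with ddH2O, and the vehicles were compared with each other. The labels name a TruSeq RNA kit and 1 cell line, and describe the raw reads of the BIO library as lost.

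Mitochondrial DNA is transcribed from both strands into long precursors that cover nearly the whole circle. Transfer RNAs sit between most of the other genes, and enzymes that cut at both ends of each tRNA release the rRNAs and mRNAs with it. The released tRNAs then receive a CCA tail that the genome does not encode, and many of their bases are chemically modified. In the stem cell state mitochondria are known to be small and immature, and their RNA supplies the mitochondrial ribosome and 13 subunits of the respiratory chain.

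The most abundant tags of the genes with the highest counts show which stretch of each RNA these fragments are. They are written 5′ to 3′ as DNA and in lower case throughout, because the whole tag is meant, with their place on chromosome M of GRCm38 in the sentences that follow.
mt-Rnr1, first hot spot: aaaactcaaaggacttggcggta
mt-Rnr1, second hot spot: aacgttaggtcaaggtgta
mt-Rnr2: actaatcctagccctagccctacac
mt-Tp: ctttgggtgctggtggtggggag
mt-Tc: ttgcaaattcgaaggtgt
mt-Th: actgtgaatctgacaacagga
mt-Tq: taggataaggtgtttaggta
mt-Tv: atgaccaatgaacactctga
mt-Co1: tcatcaatagtagaagcaggagca
mt-Nd1: accgggcccccttcgacctgacagaagga
mt-Co3: taattctattcatcgtctcggaagt

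The mt-Rnr1 tags lie at chrM:578-600 and chrM:743-761 on the plus strand, well inside the gene. The mt-Rnr2 tag, at chrM:1094-1118 on the plus strand, begins with the first base of its gene. The mt-Tp tag (chrM:15373-15395, minus strand), the mt-Tc tag (chrM:5214-5231, minus strand) and the mt-Th tag (chrM:11572-11592, plus strand) start in the middle of their tRNAs. The mt-Tq tag (chrM:3823-3842, minus strand) starts at the first base of the tRNA, and the mt-Tv tag (chrM:1074-1093, plus strand) ends at the last base. The mt-Co1 tag (chrM:5670-5693), the mt-Nd1 tag (chrM:3331-3359) and the mt-Co3 tag (chrM:8854-8878), all on the plus strand, lie within coding sequence.

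Library totals ran from 18870345 tags in DMSO to 23758363 in CHIR99021. With 1 library per group there is no spread between replicates, so no test was made, and the 95% intervals below cover counting error only; tags carry no molecular identifiers, so they are not independent molecules. Tags of 18 or 19 bases made up 8.01% (BIO) to 18.7% (VC) of all tags. Hairpins of the stem cell microRNAs (miR-290 and miR-302 clusters, 10 of 11 listed with tags) summed to between 19186 and 31116 CPM outside RA and to 5816 in RA. The 5 fibroblast microRNA hairpins summed to between 63.7 and 163 CPM, and the pair of miR-10 hairpins, known to respond to RA, to 2166 in RA and between 35.7 and 101 elsewhere.

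Mitochondrial fragments were a small and rather even share of every library. They made up 0.0636% of tags in DMSO, 0.0579% in ddH2O, 0.0625% in RA, 0.0602% in BIO, 0.0462% in CHIR99021 and 0.058% in VC. CHIR99021 had the lowest share, and its 95% Clopper-Pearson interval, 0.04534 to 0.04707%, lay below those of the other libraries. The summed level in CHIR99021 was 0.727 times that of DMSO (95% exact conditional binomial interval 0.708 to 0.746). The corresponding ratios were 0.983 (0.959 to 1.01) for RA, 0.948 (0.924 to 0.971) for BIO, 1.00 (0.976 to 1.03) for VC against ddH2O, and 0.911 (0.888 to 0.934) for ddH2O against DMSO. In bulk RNA, fewer mitochondria per cell and less RNA per mitochondrion cannot be told apart. The share for CHIR99021 depends on the scaling, since with counts divided by microRNA tags its log2 ratio to DMSO turned from -0.46 to 0.46.

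The 2 rRNAs supplied most of the fragments in 4 libraries and about as many as all other genes in the remaining ones. Their share of the mitochondrial tags was 56.9% in DMSO, 48% in ddH2O, 64.2% in RA, 54.4% in BIO, 49.3% in CHIR99021 and 58% in VC. The tRNAs gave 26.3% in DMSO, 39.2% in ddH2O, 25.1% in RA, 27.3% in BIO, 34.5% in CHIR99021 and 28.5% in VC. The 13 mRNAs gave 16.8% in DMSO, 12.8% in ddH2O, 10.7% in RA, 18.3% in BIO, 16.2% in CHIR99021 and 13.6% in VC. These shares do not depend on how a library is scaled. The tRNA share stood highest in the ddH2O vehicle (95% Clopper-Pearson interval 38.3 to 40.1%), and the mRNA share lowest in RA (10.2 to 11.3%). Per base, and relative to the density over all 37 genes, rRNA genes had 3.36 times as many tags, tRNA genes 3.09 times and protein-coding genes 0.2 times.

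**Figure D1:**
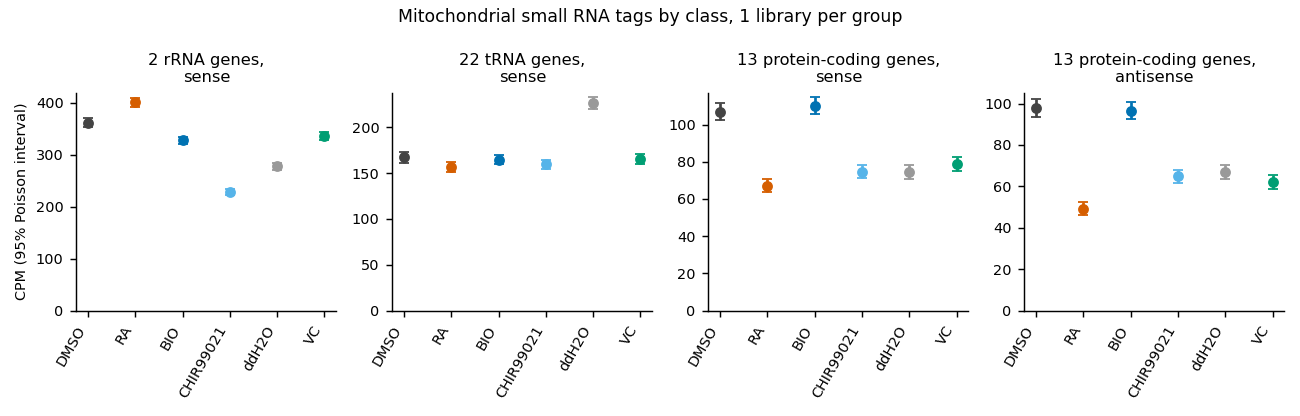
CPM (counts per 1000000 of all tags) for the rRNA, tRNA and protein-coding genes on the sense strand, and for the protein-coding genes on the antisense strand, with 1 point per library and 95% Poisson intervals for counting error. RA and CHIR99021 lie at opposite ends for rRNA, ddH2O stands above the other libraries for tRNA, and RA is the lowest for both strands of the protein-coding genes.

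Fragments of mt-Rnr1, the RNA of the small mitochondrial ribosomal subunit (chrM:70-1024, plus strand), came from few places. The gene's level was 151 CPM in DMSO, 109 in ddH2O, 174 in RA, 135 in BIO, 92.3 in CHIR99021 and 142 in VC. Base 525 of the gene was covered by 65.2 CPM in DMSO, 48.6 in ddH2O, 77.7 in RA, 63.4 in BIO, 33.7 in CHIR99021 and 71.5 in VC, while the median base of the gene was covered by 0.477. On average 44.8% of the gene's tags lay over this base and 19.7% over base 685, so these places held most of the gene's fragments. Both were occupied in every library, and the first was the higher one in each of the 6.

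Level and position differed between libraries in mt-Rnr2, the RNA of the large subunit (chrM:1094-2675, plus strand). Its level was 211 CPM in DMSO, 168 in ddH2O, 227 in RA, 193 in BIO, 136 in CHIR99021 and 194 in VC. Tags that began within 2 bases of its 5′ end made up 32.1% of the gene's tags in DMSO, 29.8% in ddH2O, 23.9% in RA, 31.6% in BIO, 17.2% in CHIR99021 and 36% in VC. The 5′ end was thus least represented in CHIR99021 and most in VC. The tag of 25 bases printed above was 0.367 times as frequent in CHIR99021 as in DMSO (0.296 to 0.452), against 0.642 (0.613 to 0.673) for the whole gene. Inside the gene, bases 975, 813 and 446 were covered by 10.6%, 10.3% and 9.94% of its tags on average.

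**Figure D2:**
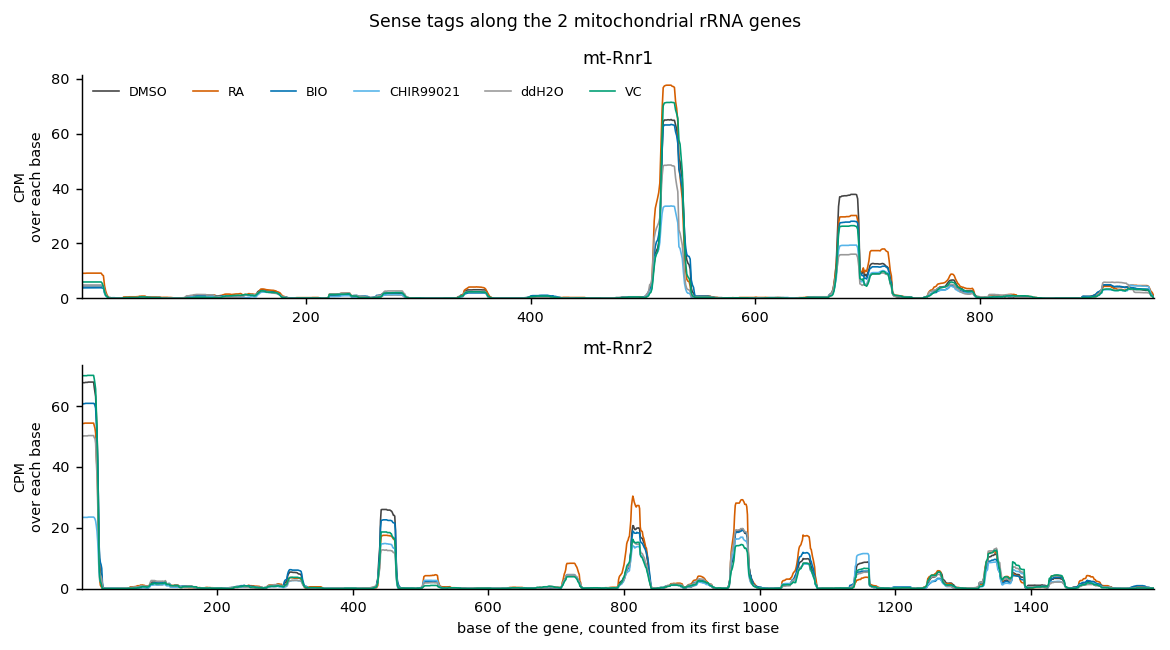
CPM over each base of mt-Rnr1 (upper panel) and mt-Rnr2 (lower panel), with 1 line per library and bases counted from the gene's first base. The same few peaks appear in all 6 libraries, at bases 525 and 685 of mt-Rnr1 and at the 5′ end of mt-Rnr2, where CHIR99021 is the lowest line.

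Among the 22 tRNAs, levels ranged widely. Per kilobase, the highest mean levels over the 6 libraries were 609.6 CPM for mt-Tp (proline), 527 for mt-Tc (cysteine), 209 for mt-Th (histidine) and 183 for mt-Tq (glutamine), and the lowest was 2.3 for mt-Td (aspartate). Relative to all 37 genes, the 8 tRNAs on the strand opposite to the rRNAs had 5.37 times the tag density, and the 14 on the rRNA strand 1.77 times. mt-Tp and mt-Tc, the most abundant, are both on the opposite strand, and the strands overlapped gene by gene. On the opposite strand mt-Tn (asparagine), mt-Ty (tyrosine) and mt-Ta (alanine) had 14.9, 36.4 and 49.7 CPM per kilobase, below mt-Th (209), mt-Ts2 (158) and mt-Tv (149) on the rRNA strand.

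The most abundant tRNA fragments came from mt-Tp (chrM:15356-15422, minus strand), at 46.5 CPM in DMSO, 37.7 in ddH2O, 37 in RA, 41.8 in BIO, 39.9 in CHIR99021 and 42.2 in VC. The lowest and highest library differed little, and no comparison passed the call used here. A gene was called higher or lower in a comparison when the ratio was at least 2-fold, its 95% exact interval excluded 1 and the higher library had at least 1 CPM. For mt-Tc (chrM:5192-5257, minus strand) the levels were 32.6 in DMSO, 60.6 in ddH2O, 31.1 in RA, 24.9 in BIO, 30.6 in CHIR99021 and 28.8 in VC. One library stood apart here, the ddH2O vehicle, and the others were close together.

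A like pattern held for mt-Th (chrM:11546-11612, plus strand), with 9.49 CPM in DMSO, 25.5 in ddH2O, 11.5 in RA, 15.3 in BIO, 11.1 in CHIR99021 and 11.2 in VC. In contrast, mt-Tq (chrM:3772-3842, minus strand) had 13.6 in DMSO, 13.4 in ddH2O, 11.1 in RA, 14.7 in BIO, 13 in CHIR99021 and 12.2 in VC, with ddH2O inside the range of the others. mt-Tv (valine, chrM:1025-1093, plus strand, between the rRNA genes) had 8.43 in DMSO, 11.9 in ddH2O, 14 in RA, 10.4 in BIO, 8.88 in CHIR99021 and 7.91 in VC. It was highest in RA, at 1.66 times the DMSO level (1.36 to 2.03), short of the 2-fold rule. The remaining 17 tRNAs had mean levels between 0.161 (mt-Td) and 9.31 (mt-Ts2) CPM.

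Many tRNAs were represented by a preferred piece, while mt-Td had 20 tags in all, each a different sequence. Over all tRNA tags, 18.5% began at the annotated 5′ end, 5.48% ended at the 3′ end and 76% lay inside, each end taken with a window of 2 bases. Tags from the 5′ end dominated in mt-Tl1 (leucine, 81.5% of its tags), mt-Ts2 (serine, 78.1%), mt-Ti (isoleucine, 63.7%), mt-Tq (61.5%) and mt-Ts1 (serine, 59%). The 3′ end led in mt-Te (glutamate, 56.3%) and was frequent in mt-Tv (31.3%). For mt-Tp, mt-Tc and mt-Th, 96%, 99.9% and 99.3% of tags lay inside. Tags ending at a tRNA 3′ end were at 13.5 CPM in RA and 7.74 in DMSO, a ratio of 1.75 (1.42 to 2.16), whereas the ratio for 5′ tags was 0.775 (0.684 to 0.879). These 2 kinds of tag share their libraries, and with the added RA-to-DMSO shift of TMM scaling (1.21 log2 units) both ratios would lie above 1. A large part of the 3′ tags came from mt-Te and mt-Tv. Tags ending exactly at the last base of these genes numbered 101 and 51 in RA, and 55 and 20 in DMSO. Tags with a CCA tail are not among the 3′ tags and were at 9.76 CPM in RA and 6.52 in DMSO.

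**Figure D3:**
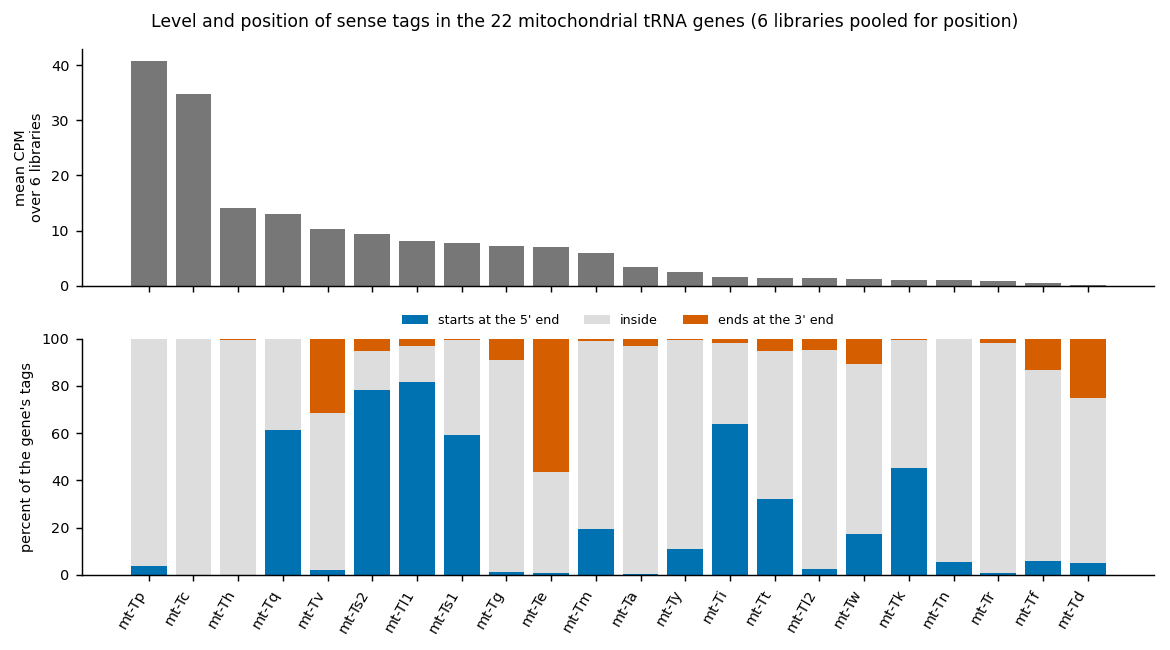
Mean CPM of the 22 tRNA genes over 6 libraries (upper panel), and the percent of each gene's tags that start at its 5′ end, lie inside or end at its 3′ end with the libraries pooled (lower panel). The most abundant tRNAs, mt-Tp, mt-Tc and mt-Th, are represented by inside tags, mt-Tl1 and mt-Ts2 by their 5′ ends and mt-Te by its 3′ end.

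The 18-base 5′ tag of mt-Ts2 differed more between libraries than its gene did, and it was singled out after its values were seen. It lies at chrM:11613-11630 on the plus strand.
mt-Ts2, 18 bases: aagaaagattgcaagaac
mt-Ts2, 19 bases: aagaaagattgcaagaact
The 18-base tag was at 0.53 CPM in DMSO, 0.196 in ddH2O, 0.103 in RA, 0.18 in BIO, 2.44 in CHIR99021 and 8.35 in VC. The tag that is 1 base longer was at 0.795 in DMSO, 1.96 in ddH2O, 1.7 in RA, 1.12 in BIO, 0.968 in CHIR99021 and 1.94 in VC. The 18-base form was thus highest in VC and CHIR99021. The 19-base form was about level in VC and ddH2O, and it was lowest in DMSO, with CHIR99021 next. VC and CHIR99021 also had the largest shares of tags of 18 or 19 bases, 18.7% and 15.8% of all tags, but RA followed with 14.4% and had the lowest level of this tag. The part of tag length in the difference was not tested.

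Where annotated genes abut on the same strand, tags stopped or started at the boundary and hardly crossed it. Summed over the libraries, 2 tags crossed the boundary of mt-Tv and mt-Rnr2 by at least 3 bases on each side, while 6674 began exactly at the first base of mt-Rnr2 and 199 ended exactly at the last base of mt-Tv. At the boundary of mt-Rnr2 and mt-Tl1, 20 tags crossed and 797 began at mt-Tl1. None crossed from mt-Th into mt-Ts2, where 884 began, and none crossed from mt-Te into mt-Nd6, where 370 ended at mt-Te. These are ends at which the precursor is known to be cut.

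Many 3′ tags carried the CCA tail. They are shown because the last 3 bases, in capitals, are not part of the annotated gene, and such tags are not among the exact matches counted above.
mt-Tg: aataaacccagaagagagtaCCA
mt-Tf: aattgtatcccataaacaCCA
mt-Th: ataaacctccttattcaccCCA
Of tags reaching a tRNA's last base, 951 had CCA after it, 127 had CC, 65 had C and 732 ended there, so that 50.7% had the full tail. The share was 49.8% in DMSO, 55.6% in ddH2O, 45.4% in RA, 56.9% in BIO, 43% in CHIR99021 and 54.1% in VC, lowest in CHIR99021 and highest in BIO. Between genes the share was low for mt-Te (8.94%), mt-Ts2 (26.7%) and mt-Tv (27.3%). It reached 74.6% for mt-Tg (glycine), 80.6% for mt-Tf (phenylalanine), 96.6% for mt-Tr (arginine, on 29 tags) and 100% for mt-Tq (on 5 tags). Of the 732 tags without an added base, mt-Te gave 370 and mt-Tv 199, which weighs on the pooled share. The genome bases after genes with no abutting neighbour were not compared with the tail.

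Besides the exact matches, tags with 1 mismatch piled up at particular bases, mostly in tRNAs. Such tags amounted to 16.5% of all tags of the tRNA genes (exact and mismatched), to 2.7% for the rRNA genes and to 1.41% for the protein-coding genes. At 11 bases at least 10% of tags over the base, on at least 60 tags, had a mismatch; these limits were set after the data had been seen. The pairs below give the most abundant mismatched tag with the matching form, with the base in question in capitals.
mt-Tt, read: gtcttgatTgtataaacattact
mt-Tt, gene: gtcttgatAgtataaacattact
mt-Tw, read: agaagtttTggatatacta
mt-Tw, gene: agaagtttAggatatacta
mt-Ts1, read: taggatatgagattggTttg
mt-Ts1, gene: taggatatgagattggCttg
mt-Tl1, read: attagggtggcagagccaggaaattgcTta
mt-Tl1, gene: attagggtggcagagccaggaaattgcGta
mt-Tp, read: ctttggTtgctggtggtggggag
mt-Tp, gene: ctttggGtgctggtggtggggag
mt-Rnr2, read: taatggttcgtttgtAcaa
mt-Rnr2, gene: taatggttcgtttgtTcaa

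In the tokens that follow, the gene's base comes first, then its position counted from 1 at the gene's first base, then the base read. A site at base 9 was found in 5 tRNAs: mt-Tt (threonine, A9T, 89.4% of tags mismatched), mt-Tw (tryptophan, A9T, 88.4%), mt-Tk (lysine, A9G, 61.7%), mt-Tp (A9T, 39.9%) and mt-Tl1 (G9T, 31.7%), and mt-Th had one at base 8 (A8T, 91.9%). The named change was the commonest one, and other bases were read as well: at base 9 of mt-Tt, 468 tags read T, 231 read G and 27 read C. Base 9 of several mitochondrial tRNAs is known to carry a methyl group, and reverse transcriptase is known to misread some methylated bases. Further sites were C29T in mt-Tt (92.2%) and mt-Ts1 (83.8%), G28T in mt-Tl1 (80.2%) and G34T in mt-Tp (13.8%). The printed G28T tag of mt-Tl1, of 30 bases, had 65 counts in BIO and 43 in ddH2O, but 1 or 0 in each other library. Tags of 25 to 30 bases made up 34.5% of all tags in BIO and 29.5% in ddH2O. Elsewhere they made up between 18.3% (RA) and 25.9% (DMSO), and the part of tag length in these counts was not tested. By library, the mismatched share at base 28 of mt-Tl1 ran from 58.3% in VC to 86.3% in BIO. RNA modification was not measured in these libraries, and its part in the mismatches was not tested.

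The mismatched share was similar between libraries at the better covered tRNA sites. At base 9 of mt-Tl1 it was 32.4% in DMSO, 30.8% in ddH2O, 32.6% in RA, 30.2% in BIO, 31.4% in CHIR99021 and 33.5% in VC, with all 95% Clopper-Pearson intervals overlapping. At base 34 of mt-Tp it was 16.2% in DMSO, 15.2% in ddH2O, 14.2% in RA, 12% in BIO, 14.4% in CHIR99021 and 11.1% in VC, and the intervals of DMSO (13.9 to 18.7%) and VC (9.13 to 13.4%) did not overlap. The site in mt-Rnr2 was T1391A, with 92.2% of tags mismatched. It rested on 16 distinct mismatched tags, and the 508 mismatched reads were spread unevenly: 42 in DMSO, 24 in ddH2O, 8 in RA, 59 in BIO, 228 in CHIR99021 and 147 in VC. The matching form of the leading tag was not seen (0 counts), and whether these tags come from mt-Rnr2 or from another RNA was not tested. They were highest in CHIR99021 and VC, which also had the largest shares of short tags, and the part of tag length was not tested.

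**Figure D4:**
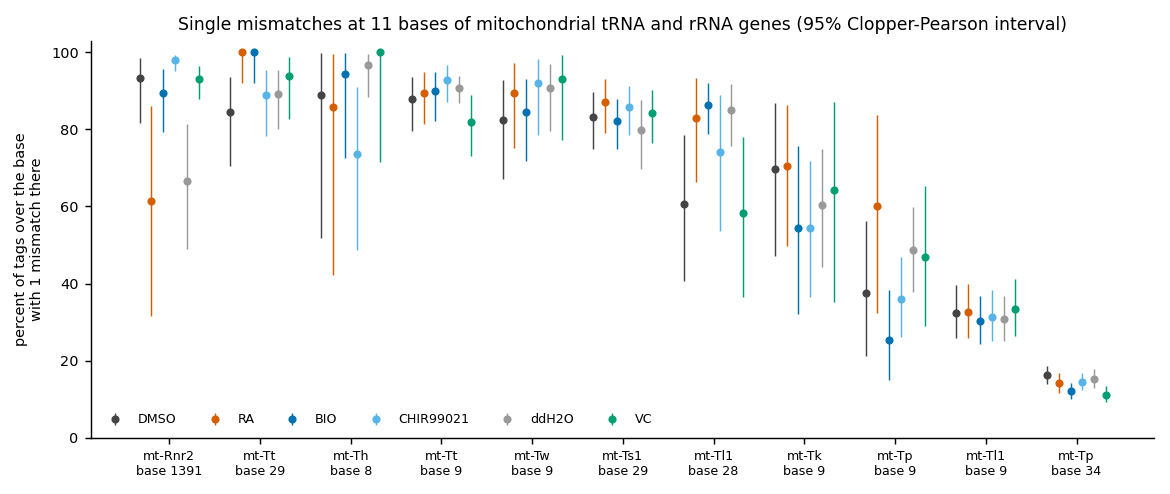
Percent of tags over a base that carry 1 mismatch there, for 11 bases of mitochondrial tRNA and rRNA genes, with 1 point per library and 95% Clopper-Pearson intervals. Shares lie close together between libraries at base 9 of mt-Tl1 and base 34 of mt-Tp, and spread most at base 1391 of mt-Rnr2.

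The 13 mRNAs left fewer fragments per base, and those of complex IV, summed, were the densest. Gene by gene the complexes overlapped. Mean levels per kilobase were 15.1 CPM for mt-Co1, 12.5 for mt-Co3 and 11.2 for mt-Co2, beside 13.8 for mt-Nd1 and 13.2 for mt-Nd6 of complex I. Relative to all 37 genes, the 3 complex IV genes (cytochrome c oxidase) had 0.362 times the tag density, the 7 complex I genes (NADH dehydrogenase) 0.153 times, mt-Cytb of complex III 0.123 times and the 2 complex V genes (ATP synthase) 0.0891 times. The highest level belonged to mt-Co1 (chrM:5328-6872, plus strand), the catalytic subunit of complex IV, with 27.8 CPM in DMSO, 17.5 in ddH2O, 21.5 in RA, 28.9 in BIO, 24.5 in CHIR99021 and 19.5 in VC. mt-Co3 (chrM:8607-9390, plus strand), another core subunit, had 11.8 in DMSO, 8.79 in ddH2O, 7.64 in RA, 10.4 in BIO, 9.22 in CHIR99021 and 11 in VC. Neither gene passed the call in any of the 5 comparisons.

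These levels carry a limit, because the nuclear genome holds copies of mitochondrial DNA. Of the counted tags, 2405 distinct ones, or 8.77% of the counts, also matched an annotated nuclear transcript. For 5 genes (mt-Co2, mt-Co3, mt-Atp6, mt-Nd3 and mt-Nd4l) over 90% of counts were shared in this way, for mt-Co1 72.8% and for mt-Nd4 61.9%, mainly with the pseudogenes Gm13340, Gm28437 and Gm28661. For 19 genes, mt-Nd1, mt-Rnr1, mt-Tp, mt-Tc and mt-Th among them, no count was shared. Tags in these pseudogenes and in the mitochondrial genes cannot be told apart. All counts of mt-Co2 and mt-Co3 were shared, so the density given for complex IV rests mostly on shared tags. Its rank above complex I depends on counting them.

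mt-Nd1 (chrM:2751-3707, plus strand), a membrane subunit of complex I, was the mRNA with the largest share of its tags in 1 sequence. Its levels were 14.8 CPM in DMSO, 18 in ddH2O, 5.52 in RA, 18.9 in BIO, 9.39 in CHIR99021 and 12.5 in VC, so that RA was the lowest library. The tag of 29 bases printed above made up 23.3% of the gene's tags, and the form that starts 1 base earlier 18.3%. The 29-base tag was at 3.34 CPM in DMSO, 3.93 in ddH2O, 0.774 in RA, 4.22 in BIO, 2.74 in CHIR99021 and 3.35 in VC. None of these tags matched a nuclear transcript. Tags of 25 to 30 bases made up 25.9% of all tags in DMSO, 29.5% in ddH2O and 18.3% in RA. The share was 34.5% in BIO, 24% in CHIR99021 and 19% in VC, so that RA had the smallest. The part of tag length in the levels of mt-Nd1 was not tested.

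Fragments of the strand opposite to the mRNAs were about as frequent as the mRNA fragments themselves. Antisense tags of the 13 protein-coding genes were at 97.8 CPM in DMSO, 66.9 in ddH2O, 49 in RA, 96.5 in BIO, 64.8 in CHIR99021 and 62.1 in VC. They made up 47.8% of the tags of both strands in DMSO, 47.4% in ddH2O, 42.2% in RA, 46.7% in BIO, 46.5% in CHIR99021 and 44.2% in VC. By contrast, antisense tags were 0.414% of the tags of the rRNA genes and 3.88% of those of the tRNA genes. Of the antisense counts of the protein-coding genes, 0.011% matched the sense strand of an annotated nuclear transcript. Tags from the strand opposite to such a transcript were not searched for. A nuclear source of the antisense tags was therefore not tested.

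The antisense share followed the gene. It was 80.5% for mt-Nd4, 78.6% for mt-Nd3, 68.5% for mt-Nd5, 66% for mt-Atp6 and 65.4% for mt-Cytb, but 23.5% for mt-Nd1 and 23.1% for mt-Co1. mt-Nd6, the 1 protein-coding gene on the opposite strand, had 5.39%. In RA, antisense tags of the 13 genes were at 0.501 times the DMSO level (0.463 to 0.542), in CHIR99021 at 0.663 times (0.619 to 0.709) and in BIO at 0.987 times (0.927 to 1.05), all against the same DMSO library. The ddH2O vehicle itself was at 0.684 times DMSO (0.637 to 0.734), a difference as large as that of CHIR99021, and VC was at 0.929 times ddH2O (0.86 to 1).

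In the RA library, mitochondrial fragments held their level while most other genes had lower ones on this scale. Of the 37 genes, 32 reached 1 CPM in RA or DMSO; 0 were called higher and 3 lower, all subunits of complex I. Over all 5059 genes compared, 5.32% were called higher and 63.1% lower, and the median log2 ratio was -1.30, against -0.23 for the mitochondrial genes. mt-Nd1 was at 0.372 times the DMSO level (0.295 to 0.467) and mt-Nd6 at 0.428 times (0.326 to 0.557). mt-Nd3 was at 0.278 times (0.123 to 0.574), on 10 and 35 tags, nearly all of them shared with nuclear transcripts. Against ddH2O, the other vehicle, mt-Nd1 was still called lower (log2 ratio -1.71), but mt-Nd3 (-0.41) and mt-Nd6 (-0.04) were not. The level of mt-Nd6, the complex I subunit encoded on the opposite strand, was 10.02 CPM in DMSO, 4.42 in ddH2O, 4.28 in RA, 10.4 in BIO, 5.39 in CHIR99021 and 6.7 in VC. That of mt-Nd3 was 1.85 in DMSO, 0.688 in ddH2O, 0.516 in RA, 2.11 in BIO, 1.09 in CHIR99021 and 0.971 in VC. For both genes DMSO and BIO were the high libraries, and RA was close to ddH2O. Both rRNAs were slightly higher in RA than in DMSO, mt-Rnr1 at 1.16 times (1.1 to 1.22) and mt-Rnr2 at 1.07 times (1.03 to 1.12).

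By role, the RA-to-DMSO ratio was 1.11 (1.07 to 1.15) for the rRNAs, 0.938 (0.892 to 0.986) for the tRNAs and 0.628 (0.585 to 0.674) for the mRNAs. Among the mRNAs it was 0.497 (0.443 to 0.558) for complex I, 0.721 (0.653 to 0.796) for complex IV, 0.688 (0.514 to 0.917) for complex III and 0.974 (0.665 to 1.43) for complex V. The directions depend on the scaling: with TMM factors, which shift each RA-to-DMSO ratio by 1.21 log2 units, rRNA, tRNA and mRNA sums were all above DMSO (log2 ratios 1.36, 1.12 and 0.54), 16 genes were called higher and 0 lower. The order against DMSO, rRNA above tRNA above mRNA, does not depend on the scaling, but it depends on the vehicle. In RA and ddH2O the sums were 401 and 278 CPM for rRNA, 157 and 227 for tRNA, and 67.1 and 74.4 for mRNA. Against ddH2O the tRNA sum was therefore the lowest of the 3, and the mRNA sum was closer to its vehicle than against DMSO. MicroRNA tags, another basis for scaling, made up 3.81% of the RA library and 11.5% of the DMSO library. Over all genes compared, 5.32% were called higher and 63.1% lower, with a median log2 ratio of -1.30. Of 54 nuclear genes for respiratory chain subunits, 36 were compared. Beside those shares, 0 were called higher and 32 lower, with a median log2 ratio of -1.51. Of the nuclear genes for mitochondrial RNA synthesis, processing and decay, 8 records (Rmrp is annotated more than once) were compared. Of these, 0 were higher and 5 lower, near the share over all genes, with a median of -1.36.

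BIO gave no called gene among the mitochondrial ones. Of 33 genes compared with DMSO, 0 were called higher and 0 lower, beside 1.18% and 2.41% of all genes, and the median log2 ratio was -0.03, as over all genes. The class ratios were 0.906 (0.876 to 0.936) for rRNA, 0.985 (0.939 to 1.03) for tRNA and 1.03 (0.971 to 1.09) for mRNA. mt-Th was the named tRNA with the largest ratio, 1.62 (1.34 to 1.95).

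CHIR99021, the other GSK3 inhibitor and given at a different dose, had lower rRNA and mRNA fragments than DMSO without any gene passing the call. Of 33 genes, 0 were called higher and 0 lower, beside 7.24% and 7.52% of all genes. The median log2 ratio was -0.18 for the mitochondrial genes and 0.22 for all genes. The rRNA sum was at 0.63 times DMSO (0.608 to 0.653), the mRNA sum at 0.699 times (0.655 to 0.745), and the tRNA sum at 0.953 times (0.909 to 1). mt-Rnr1 and mt-Rnr2 moved alike, at 0.613 (0.58 to 0.649) and 0.642 (0.613 to 0.673), and mt-Tp, mt-Tc and mt-Tq lay between 0.857 and 0.952, mt-Tv at 1.05 (0.854 to 1.3) and mt-Th at 1.17 (0.965 to 1.42). Scaled to microRNA tags, whose share of the library was 6.08% in CHIR99021 and 11.5% in DMSO, the 3 class sums lay above DMSO instead (log2 ratios 0.26, 0.86 and 0.41 for rRNA, tRNA and mRNA). With TMM factors 4 genes were called lower. The ddH2O vehicle had nearly the same mRNA sum as CHIR99021 (74.4 and 74.6 CPM), so that the lower mRNA sum held against DMSO only. The rRNA sum was 228 CPM in CHIR99021 and 278 in ddH2O.

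VC differed from its vehicle in tRNA fragments. Of 34 genes compared with ddH2O, 0 were called higher and 3 lower, beside 8.11% and 1.01% of all genes. All 3 were tRNAs: mt-Tc at 0.475 times ddH2O (0.43 to 0.524), mt-Th at 0.439 times (0.374 to 0.514) and mt-Tr at 0.428 times (0.205 to 0.846), the last on 13 and 30 tags. With tags of 20 to 44 bases only, mt-Tc fell just short of the call (log2 ratio -0.95). In that setting mt-Th, mt-Tr, mt-Ts1 and mt-Ts2 were called lower. The level of mt-Tr was 0.954 CPM in DMSO, 1.47 in ddH2O, 0.619 in RA, 0.943 in BIO, 0.758 in CHIR99021 and 0.631 in VC, so that only ddH2O reached 1 CPM. The tRNA sum was at 0.727 times ddH2O (0.696 to 0.76), and the rRNA sum at 1.21 times (1.17 to 1.25), which TMM scaling took to a log2 ratio of -0.01. The median log2 ratio was -0.01 for the mitochondrial genes and 0.31 for all genes.

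The vehicles also differed from each other, mt-Th again included. In ddH2O against DMSO, 2 of 35 genes were called higher and 3 lower, beside 2.66% and 6.22% of all genes: mt-Th at 2.69 times (2.27 to 3.21) and mt-Tl2 (leucine) at 2.03 times (1.19 to 3.58), and mt-Nd3 at 0.371 times (0.184 to 0.707), mt-Nd6 at 0.441 times (0.339 to 0.57) and mt-Nd4 at 0.499 times (0.303 to 0.805). mt-Tc was at 1.86 times (1.68 to 2.05). The class ratios were 1.36 (1.3 to 1.42) for tRNA, 0.768 (0.742 to 0.796) for rRNA and 0.696 (0.651 to 0.744) for mRNA. With DMSO in place of ddH2O as control, the log2 ratio of VC was 0.24 for mt-Th and -0.18 for mt-Tc, and neither was called. On this scale 5 genes were called between the vehicles and at most 3 between an agent and its vehicle. That order depends on the scaling: with TMM factors 16 genes were called for RA and 7 for VC, against 4 higher and 2 lower between the vehicles, and with microRNA scaling 28 for RA and 9 for CHIR99021, against 8 higher and 1 lower. The vehicle and the library cannot be told apart. Tags of 18 or 19 bases made up 11% of all tags in ddH2O and 10.9% in DMSO. The longer tags differed more: those of 25 to 30 bases made up 29.5% and 25.9%, and those of 31 to 44 bases 1.08% and 0.178%.

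**Figure D5:**
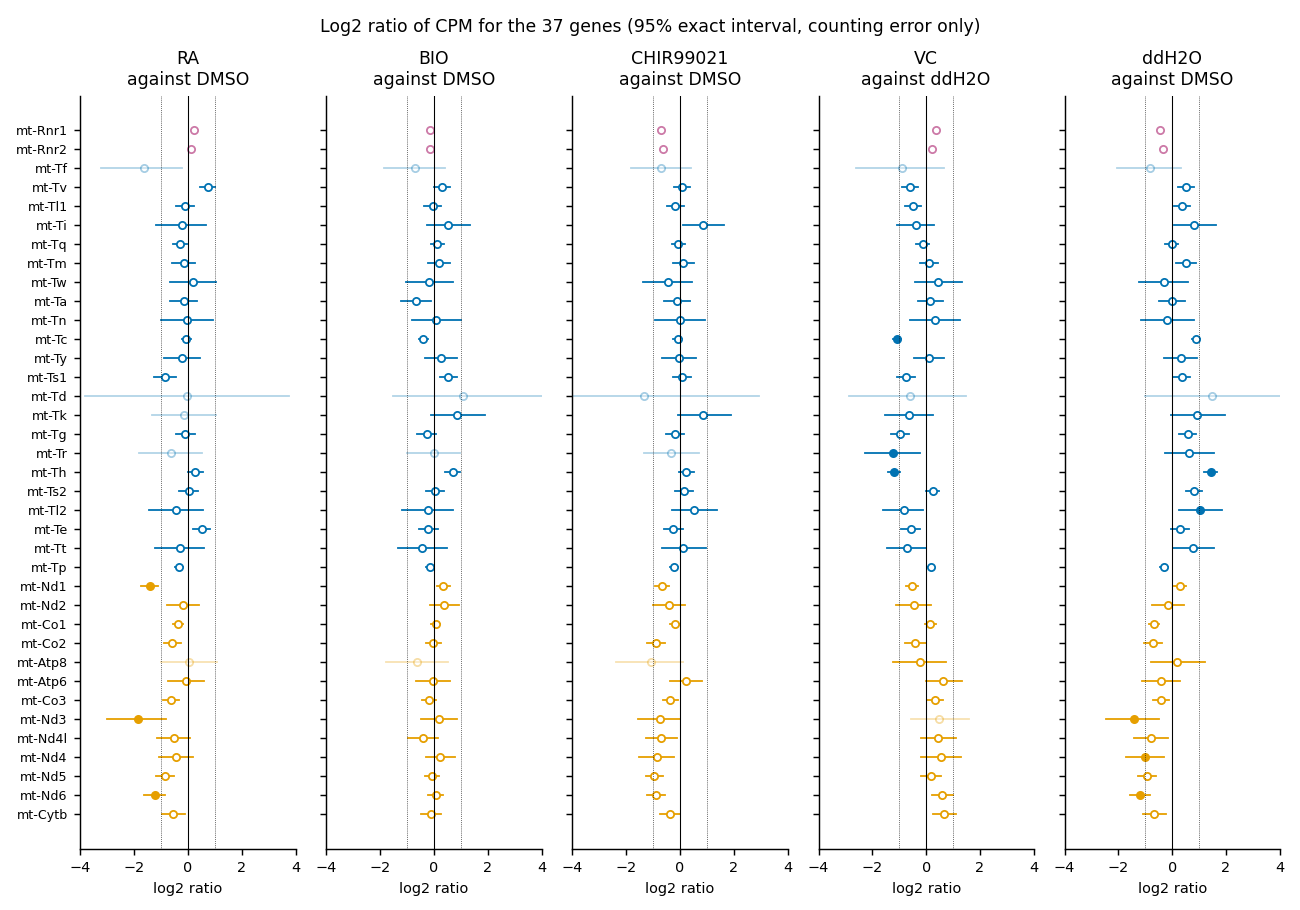
Log2 ratio of CPM for each of the 37 genes in the 5 comparisons, with 95% exact intervals for counting error. Filled points passed the call, pale points lay below 1 CPM in both libraries, and dotted lines mark 2-fold; the 3 filled points for RA are mt-Nd1, mt-Nd3 and mt-Nd6, of which the last 2 are filled on the same side for ddH2O against DMSO, and mt-Th is filled on opposite sides for VC against ddH2O and for ddH2O against DMSO.

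The listed nuclear genes that serve mitochondria had calls in CHIR99021 and VC in the higher direction, beside 7.24% and 8.11% of all genes called higher there. Of the listed respiratory chain subunits, 38 were compared for BIO with 0 higher and 0 lower, 44 for CHIR99021 with 6 higher and 0 lower, 39 for VC with 4 higher and 0 lower, and 40 for ddH2O against DMSO with 0 higher and 1 lower. Of the list for mitochondrial RNA synthesis, processing and decay, 10 records were compared for BIO with 0 calls, 12 for CHIR99021 with 3 higher and 0 lower, and 8 each for VC and for ddH2O against DMSO with 0 calls. The median log2 ratio of the respiratory chain list in CHIR99021 was 0.47, beside 0.22 over all genes and -0.18 for the mitochondrial genes.

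Fragment length differed by class as well. The median length was 22 or 23 bases for rRNA tags, 20 or 21 for tRNA tags and 23 or 24 for mRNA tags, depending on the library, and 22 for microRNA tags. Tags of 25 to 30 bases made up 36.5% of the mRNA tags in DMSO, 39.4% in ddH2O, 29.9% in RA, 44% in BIO, 31.7% in CHIR99021 and 29.9% in VC. Among microRNA tags, which were counted from 18 to 26 bases only, tags of 22 to 24 bases made up between 76.3% and 84.1%. Among the tags of all 37 mitochondrial genes, counted up to 44 bases, they made up between 28.5% and 32.8%. The unlike length limits set a part of this difference. Fragments under 18 bases are not listed in the files.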

How the data were processed

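Small RNA of 6 libraries, 1 per group, was analysed. The deposited files list distinct read sequences with raw counts and lengths, per the file contents; the submitters' processing notes name the mm9 genome, and aligner, trimming and filters are not given in the sources used here. The values were used as deposited counts. All tags of 18 to 44 bases were matched exactly to the sense strand of all GENCODE M21 transcripts (GRCm38), whose annotation gives the coordinates. Tags of several mt- genes were split evenly among them, tags shared with nuclear transcripts were counted in full, and the 37 mt- genes were summed. For the calls over all genes, the nuclear lists and the scaling factors, a tag was split evenly over all matching genes, nuclear ones included. Levels are counts per 1000000 of all tags in each library (CPM). Ratios carry 95% exact conditional binomial intervals and shares 95% Clopper-Pearson intervals. A gene was compared from 1 CPM in the higher library, and called at 2-fold with the interval excluding 1; a count of 0 allows up to 3 counts, or 0.126 to 0.159 CPM.

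Values by library are given for both rRNAs, the 5 tRNAs and 3 mRNAs with the highest mean level, and for the most extreme called tRNA or mRNA of each comparison; mt-Nd4, mt-Tl2 and the tags with mismatches or CCA tails were named after their values were seen. The members and lists were chosen with earlier results of these data known. Alternatives were other scalings (microRNA tags, TMM, median-of-ratios), other minimum levels and lengths, tags counted once or of several genes left out, CCA tails added and the other vehicle. Matching and calls were tested on simulated data. Python 3.11.15, numpy 2.4.6, scipy 1.17.1, pandas 2.3.3, matplotlib 3.10.9 and R 4.3.3 were used, with edgeR 4.0.16 and DESeq2 1.42.0 for scaling factors only.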

Additional observations from a re-analysis of the deposited data

How the results depend on the processing

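No paired analysis was possible because each group has 1 library. Depth limits the genes near or below 1 CPM, tRNAs such as mt-Td and mt-Tf among them, and scaling limits every statement across libraries. Counts of genes below are over the mitochondrial genes, and log2 values are ratios of their summed tags. The main values were 0 higher and 3 lower with -0.02 for RA, 0 and 0 with -0.08 for BIO, 0 and 0 with -0.46 for CHIR99021, 0 and 3 with 0.00 for VC, and 2 and 3 with -0.13 for ddH2O against DMSO. Removing tags of several mitochondrial genes or adding C, CC or CCA tails moved 0 of 90 results.

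Scaling to microRNA tags gave 28 genes higher and 0 lower for RA, 1 higher for BIO, 9 higher for CHIR99021, and 8 higher and 1 lower for ddH2O; the log2 ratios became 1.58, 0.20, 0.46, -0.10 for VC and 0.28 for ddH2O. TMM factors gave 16 higher and 0 lower for RA, 4 lower for CHIR99021, 7 lower for VC and 4 higher for ddH2O, with log2 ratios of 1.19, -0.63, -0.28 and 0.04. Median-of-ratios factors gave 17 higher and 0 lower, 4 lower, 7 lower and 4 higher, with 1.21, -0.65, -0.29 and 0.02. These factors shift all genes alike: TMM by 1.21 for RA, 0.02 for BIO, -0.17 for CHIR99021, -0.28 for VC and 0.17 for ddH2O on the log2 scale.

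With the other vehicle as control, RA had 8 genes lower (mt-Nd1 and 7 tRNAs, without mt-Nd3 and mt-Nd6) and a log2 ratio of 0.11, BIO 3 higher, 3 lower and 0.06, CHIR99021 2 lower and -0.33, and VC 1 higher, 1 lower and -0.13. Leaving out tags counted once gave 5 lower for RA, 1 lower for BIO, 2 lower for CHIR99021, 1 higher and 6 lower for VC, and 4 higher for ddH2O. With tags of 20 to 44 bases the log2 ratio was 0.02 for RA and -0.18 for ddH2O, and 1 gene was higher for CHIR99021. A minimum of 10 CPM left 1 higher and 1 lower for ddH2O.

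The match to nuclear chromosomes was not run; leaving out tags in nuclear transcripts stood in for it. This alternative, and the next pair, were chosen after seeing the data. It gave log2 ratios of 0.01 for RA and -0.09 for ddH2O, 1 gene lower for CHIR99021, 1 higher for VC and 1 lower for ddH2O. Without the most abundant tag of each gene the log2 ratios were 0.02 for RA and -0.18 for ddH2O, and with 1 mismatch allowed -0.41 for CHIR99021 and -0.09 for ddH2O.

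Some single genes changed direction. Against DMSO, mt-Nd1 and mt-Nd6 in RA went to 0.17 and 0.38 with microRNA scaling, and mt-Nd6 to 0.01 with median-of-ratios factors. With DMSO as control, mt-Th in VC went to 0.24. Apart from what the scaling factors and the other control set by construction, the cause was not tested.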
